A study of Mus musculus with 4 samples.

Results

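The genes described here are 34 genes of innate RNA sensing and the interferon response, chosen by name from the 49997 gene rows of the count table, and every one of them has a row. They fall into RNA sensors (Ifih1, Dhx58, Tlr3 and Zbp1), the proteins that pass the signal on (Mavs, Tbk1 and Trim25), transcription factors (Irf1, Irf3, Irf7, Irf9 and Stat2), the type I interferon receptor (Ifnar1 and Ifnar2), 15 effectors, the ISG15 system (Isg15 and Usp18), and enzymes that edit or clear nucleic acids and their precursors (Adar, Samhd1 and Trex1). The study compared E14 cells, a mouse embryonic stem cell (ESC) line that is pluripotent, carrying either a scrambled short hairpin RNA (shScramble) or one against Ythdf2 (shYthdf2), with 2 libraries in each group. YTHDF2 is a protein that binds mRNAs carrying N6-methyladenosine (m6A) and promotes their decay. All 4 libraries came from cells infected with a lentivirus, kept as stable lines under puromycin, and grown on gelatin with leukemia inhibitory factor, so the control cells had met a virus and a drug as well. Per the methods the ESCs also held a tdTomato reporter driven by the MERVL promoter. Which of a pair of hairpins against Ythdf2 was used for these libraries is not given in the labels.

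Long or unmodified double-stranded RNA in the cytoplasm is bound by the helicases RIG-I and MDA5, which signal through MAVS on mitochondria to the kinase TBK1 and the transcription factor IRF3, and IRF3 switches on interferon genes. Secreted type I interferon binds the IFNAR1 and IFNAR2 receptor, and a complex called ISGF3, which holds STAT2 and IRF9, then switches on interferon-stimulated genes through a short DNA element, the interferon-stimulated response element (ISRE). Pluripotent stem cells are known for a weak interferon response, and m6A and its readers are known to affect both the decay of interferon transcripts and the sensing of RNA in other cells.

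Libraries held from 31113006 to 36422510 counted reads. Levels are given as counts per 1e6 reads (CPM, scaled between libraries by TMM, a factor that corrects for composition), or, where genes are compared with each other, as transcripts per 1e6 transcripts (TPM), which also divide by gene length. A gene without a read in a library was bounded by 3 reads, which is between 0.0833 and 0.0952 CPM and covers counting error only. Both reads of a pair were counted, and from 61.5% to 63.9% of small counts in a library were even. The reads are thus not fully independent, and this bound may be too low. Ythdf2 itself was at 93.4 and 87.6 CPM in shScramble and at 31.8 and 30.2 CPM in shYthdf2, or 34.2% of the control (log2 fold change -1.55, SE 0.11, edgeR adjusted p = 0.00069). The cells had the markers of their labelled type. All 9 pluripotency markers lay between 244 CPM (Klf4) and 1221 CPM (Pou5f1) in every library, while 5 of 8 fibroblast markers and 5 of 8 markers of blood and immune cells had a mean under 1 CPM. The highest of each list were Thy1, at a mean of 12.4 CPM, and Cd68, at 19.3 CPM. The fibroblast gene Dcn had 0 reads in every library, and Ptprc, which encodes the leukocyte antigen CD45, had 2 reads in 1 library and 0 in the others.

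Most signalling genes were well expressed, and 10 of the 17 effectors and ISG15 genes were under 1 TPM. 18 of the 34 genes had a mean of at least 1 TPM over the 4 libraries, and 12 had at least 10 TPM. Of these 12, 11 were among the 17 genes that sense, signal, receive or edit, namely Mavs, Tbk1, Trim25, Irf1, Irf3, Irf9, Stat2, Ifnar1, Ifnar2, Adar and Samhd1, and only B2m was among the 17 effectors and ISG15 genes. In all, 23 of the 34 genes (67.6%) passed the filter on low counts, against 18341 of all 49997 rows (36.7%). The 11 that did not pass had at most 22 reads in any library.

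**Figure D1:**
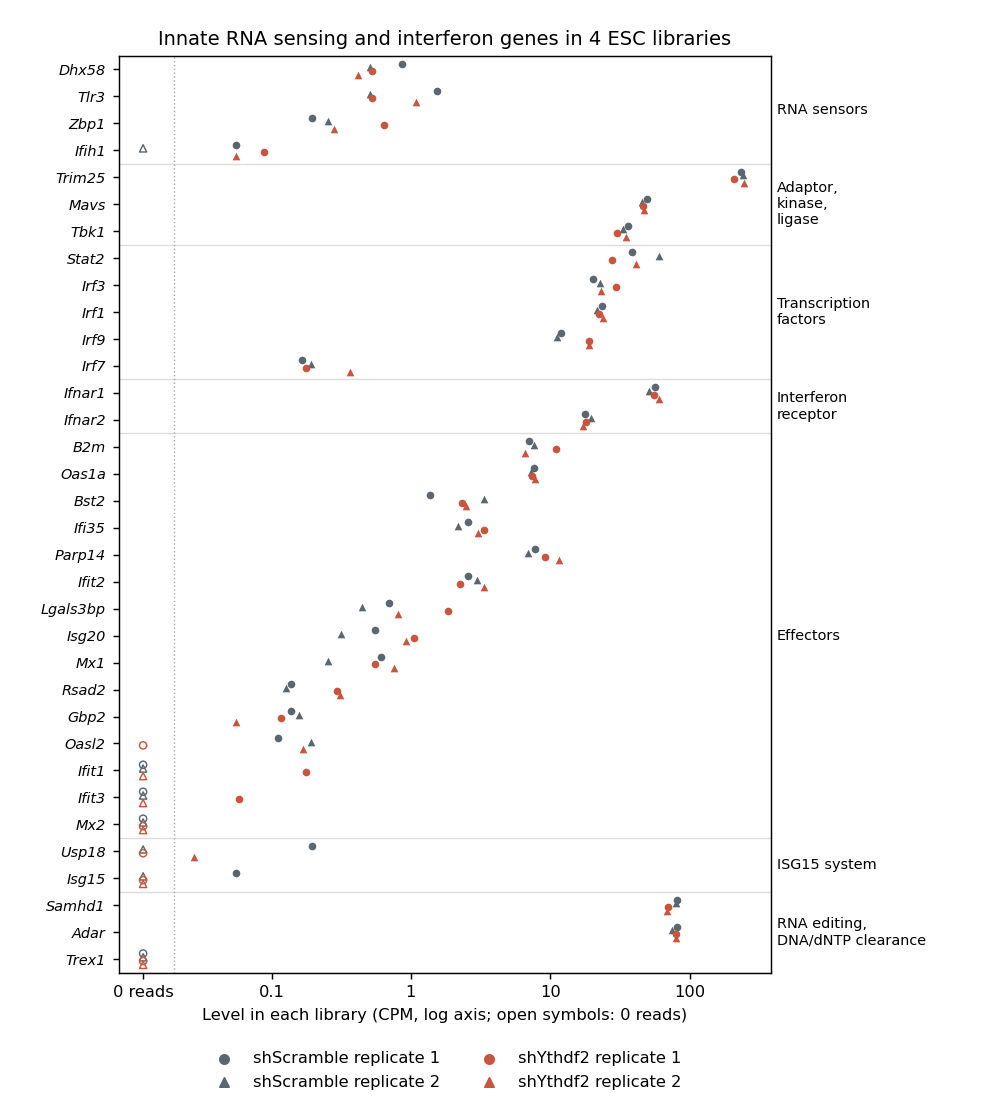
Level of each of the 34 genes in each library (CPM, log axis), ordered by role and by mean TPM within a role, with open symbols for libraries with 0 reads. Genes for signalling, the transcription factors other than Irf7, the receptor, Adar and Samhd1 lie between 10 and 250 CPM. The 4 libraries are close together for most of these, less so for Stat2, Irf9 and Irf3. Irf7, the ISG15 system, many effectors and most values of the 4 sensors lie under 1 CPM.

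The 4 sensors of the list were scarce, each with a mean under 1 TPM. Ifih1, which encodes the double-stranded RNA helicase MDA5, had 2 and 0 reads in shScramble and 3 and 2 in shYthdf2. Dhx58, which encodes LGP2, a helper of MDA5, had 31 and 16 reads in shScramble and 18 and 15 in shYthdf2. Tlr3, the endosomal receptor for double-stranded RNA, had 55 and 16 reads against 18 and 39. The groups overlapped for Dhx58 and Tlr3, and neither passed the test (log2 fold changes of -0.54 and -0.34, SE 0.58 and 0.61, edgeR adjusted p = 0.65 and 0.81). Zbp1, which encodes a sensor of left-handed double-stranded nucleic acid that can start cell death, had 7 and 8 control reads, 22 and 10 knockdown reads, and was just short of the filter. Of the 17 other sensor genes looked up, 10 had a mean of at least 1 TPM, among them Eif2ak2 at 10.2 TPM. Ddx58, the gene of RIG-I, was the most abundant of the 17, at 18.1 TPM. It had 1280 and 609 reads in shScramble and 1346 and 1620 in shYthdf2. The shYthdf2 libraries lay above both controls, but the controls were far apart and the test was not passed (log2 fold change 0.62, SE 0.24, edgeR adjusted p = 0.17).

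The middle of the pathway was well expressed, with little difference between libraries. Mavs, the mitochondrial adaptor, was at 49.3 and 45.7 CPM in shScramble and 46.3 and 46.8 CPM in shYthdf2. Tbk1, the kinase that phosphorylates IRF3, was at 36.3 and 33.2 CPM against 30.2 and 35.0 CPM. Trim25, a ubiquitin ligase known for its part in RIG-I signalling, was at 234 and 242 CPM against 208 and 244 CPM. In all of these the groups overlapped, and the 95% intervals of the log2 fold change ran from -0.29 to 0.23 for Mavs, from -0.40 to 0.22 for Tbk1 and from -0.32 to 0.18 for Trim25. Trim25 is listed both on chromosome 11 and on an extra contig, so its deposited length of 11143 bases counts the gene double, and its 53.7 TPM would be 108 TPM over the 5564 bases on the chromosome. Reads aligned to several places were left out by the counting, so its CPM may be a lower limit too. Whether reads of Trim25 were lost in this way was not tested.

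Both chains of the type I interferon receptor were expressed at like levels per length, Ifnar1 at 19.9 TPM and Ifnar2 at 14.7 TPM. Ifnar1 was at 56.6 and 50.8 CPM in shScramble and 55.4 and 60.1 CPM in shYthdf2. Ifnar2 was at 17.8 and 19.4 CPM against 18.1 and 17.1 CPM. The groups overlapped for both, with 95% intervals of the log2 fold change from -0.16 to 0.37 and from -0.43 to 0.27. Transcripts of the interferons themselves were nearly undetected. Of 14 interferon genes looked up, Ifnb1, Ifng and 9 others had 0 reads in all 4 libraries, and the remaining 3 (Ifnk, Ifne and Ifna13) had 14 reads together, 4 of them in shScramble replicate 1 and 10 in shYthdf2 replicate 2. A gene at 0 reads is bounded as stated above, so lower levels could not be seen at this depth. Reads aligned to several places were left out by the counting. Counts of interferon genes that have similar copies, such as the Ifna genes, may thus be lower limits, which was not tested.

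Irf9 was the 1 gene of the list that passed the threshold. It encodes the DNA-binding subunit of ISGF3 and lies on chromosome 14 from 55603985 to 55610030 on the plus strand (mm10), with no exon base shared with another gene. Irf9 had 432 and 354 reads in shScramble and 644 and 679 reads in shYthdf2, or 12.0 and 11.2 CPM against 18.8 and 19.0 CPM. Both shYthdf2 libraries lay above both control libraries, and each pair of replicates was close. Its mean of 11.6 ± 0.54 CPM rose to 18.9 ± 0.096 CPM (mean ± SD, n = 2), or 0.70 on the log2 scale (SE 0.17, 95% interval from 0.33 to 1.07, edgeR adjusted p = 0.049). The size was steady, from 0.66 to 0.75 over 13 other settings, but the call was at the edge of the threshold, and it was lost under RLE scaling (adjusted p = 0.052), with library totals alone (0.054), without shScramble replicate 2 (0.13) and without shYthdf2 replicate 1 (0.059). In bulk RNA more cells of a type and more RNA per cell cannot be told apart. Set against the background, 1 of 23 tested genes is 4.35%, and 3.91% of all 18341 tested genes passed the same threshold, so the share among these genes was close to that of all genes. By direction, 1 gene of the list was higher, where 2.43% of all genes were, and 0 were lower, where 1.49% were. With DESeq2 Irf9 was again the 1 gene of the list that passed, where 8.9% of the genes given an adjusted p did. The study's criteria ask for an unadjusted DESeq2 p of at most 0.05 and a log2 fold change of at least 1 in either direction. They kept 2.88% of all genes with a read, and 0 genes of the list.

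Stat2, which encodes a partner of IRF9 in ISGF3, was at 38.6 and 60.1 CPM in shScramble and at 27.6 and 41.2 CPM in shYthdf2. The groups overlapped, and the test was not passed (log2 fold change -0.52, SE 0.23, edgeR adjusted p = 0.23). The value depended on single libraries. Stat2 passed as lower without shScramble replicate 1 (log2 fold change -0.80, edgeR adjusted p = 0.00078) and without shYthdf2 replicate 2 (-0.84, 4.14e-05), as it did without a filter on low counts (-0.52, 0.012). By contrast it was at -0.17 when shScramble replicate 2 was left out and at -0.26 when shYthdf2 replicate 1 was. In level per length Stat2 was above Irf9, at 24.3 TPM against 14.6 TPM, each a mean over the 4 libraries.

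Other transcription factors of the list differed widely in level. Irf3, the factor that TBK1 activates, was at 20.1 and 22.9 CPM in shScramble and 29.3 and 23.0 CPM in shYthdf2, and Irf1, a factor of the interferon gamma response, at 23.6 and 21.7 CPM against 22.2 and 23.8 CPM. The groups overlapped for Irf1 and were separated by a small gap for Irf3, where 1 shYthdf2 library was nearly at the level of a control, and the test was not passed for Irf3 (log2 fold change 0.29, SE 0.17, edgeR adjusted p = 0.37). The 95% interval for Irf1 ran from -0.31 to 0.35. Irf7, which amplifies interferon production once interferon has acted, had only 6 and 6 reads in shScramble and 6 and 13 in shYthdf2 and was not tested.

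Of the 15 effectors, 5 were not tested because of low counts. Ifit1, whose protein binds foreign capped RNA, and Ifit3, which encodes its partner, had 0 reads in both shScramble libraries, and in shYthdf2 they had 6 and 2 reads in replicate 1 and 0 in replicate 2. Mx2, a gene of the dynamin-like antiviral GTPases, had 0 reads in all 4 libraries. Oasl2 had 4 and 6 reads against 0 and 6, and Gbp2, a GTPase induced by interferon gamma, 5 and 5 reads against 4 and 2. The ISG15 system was as scarce. Isg15, a ubiquitin-like modifier, had 2 reads in shScramble replicate 1 and 0 in the other 3 libraries, and Usp18, the protease that removes it, had 7 and 0 reads against 0 and 1.

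The ISRE core, read as GAAA, any 2 bases and GAAA again on either strand, was searched in the promoters of the list (RefSeq, GRCm38.p6, 250 bases before to 50 after each start site). Promoters were found for 28 of the 34 genes by symbol, all but Dhx58, Mx1, Mx2, Parp14, Usp18 and Zbp1. The core was in a promoter of 10 of these 28 genes (35.7%), and in 3.99% of all 27025 genes of the table (3.44% of its 32851 promoters). Matches can overlap each other. By role, 7 of 12 effectors held it, and 0 of 3 signalling genes and 0 of 2 receptor genes. Windows of 30 bases are shown for 3 genes that were nearly silent in these cells and 4 that were expressed, in the direction of the gene, with each match in capitals (TTTC, 2 bases and TTTC are the same core on the other strand).
Isg15, chr4:156200871-156200900, minus strand: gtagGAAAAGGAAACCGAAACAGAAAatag
Ifit1, chr19:34640785-34640814, plus strand: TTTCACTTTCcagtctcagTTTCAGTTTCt
Ifit3, chr19:34583397-34583426, plus strand: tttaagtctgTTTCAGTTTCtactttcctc
Oas1a, chr5:120907523-120907552, minus strand: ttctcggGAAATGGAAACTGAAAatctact
Bst2, chr8:71537580-71537609, minus strand: attccagGAAAATGAAACTGAAAggctgca
B2m, chr2:122147538-122147567, plus strand: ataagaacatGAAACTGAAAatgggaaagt
Stat2, chr10:128270266-128270295, plus strand: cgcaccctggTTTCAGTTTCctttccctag
The 10 genes with the core spanned the range of levels, from Ifit3 at 0.013 TPM to Stat2 at 24.3 TPM, and 6 of them were under 1 TPM. Of the 10, 5 were tested, and 0 of these had an adjusted p under 0.05. Of all 18341 tested genes 3.91% did, so 5 genes are too few to show a difference from that share. Irf9 had 0 matches in its promoters, which says only that these letters are not in those windows.

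**Figure D2:**
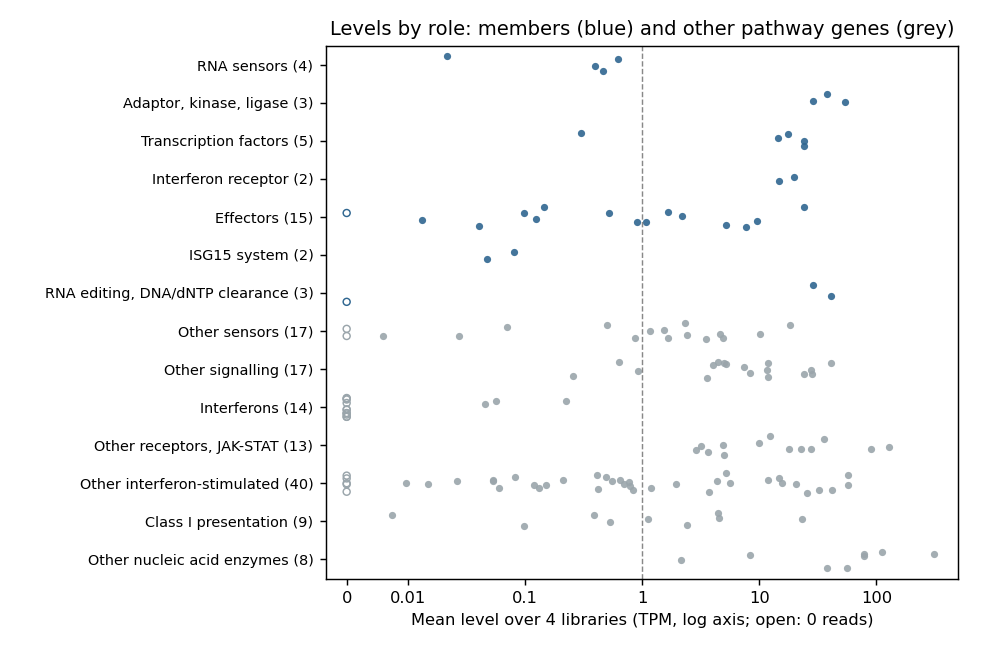
Mean level over the 4 libraries (TPM, log axis) of the 34 genes (blue) and of 118 other genes of the pathway (grey) by role, with the number of genes in parentheses, open symbols for genes with 0 reads and a dashed line at 1 TPM. All 5 adaptor, kinase, ligase and receptor genes lie above 10 TPM, and all 14 interferon genes lie under 1 TPM.

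The 10 effectors that were tested all had a positive log2 fold change, with a median of 0.46. Of them, 0 passed the threshold, which 3.91% of all 18341 tested genes passed. With 10 genes, 0 cannot be told apart from that share. Only Parp14 among the 10 effectors had an unadjusted p under 0.05. In the whole list 3 of 23 genes did (Irf9, Parp14 and Stat2), against 20.8% of all tested genes. Over all 23 tested genes of the list the median was 0.04, with 15 positive and 8 negative, beside a median of 0.00 over all 18341 tested genes. A positive log2 fold change was seen in 9213 of all 18341 tested genes. Of 27 other interferon-stimulated genes of the pathway that were tested, 18 were positive and 9 negative. The untested effectors were mixed, with fewer reads in shYthdf2 for Gbp2 and Oasl2 and reads only there for Ifit1 and Ifit3. A direction without a passed test is given here as a description, and Rsad2 came through the filter by its shYthdf2 libraries alone.

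Parp14, which encodes an ADP-ribosyltransferase, was at 7.75 and 6.92 CPM in shScramble and 9.21 and 11.5 CPM in shYthdf2. The groups did not overlap, and the log2 fold change was 0.50 (SE 0.22, edgeR adjusted p = 0.23). Ifi35 was at 2.58 and 2.16 CPM against 3.34 and 3.02 CPM, also without overlap (log2 fold change 0.42, SE 0.31, edgeR adjusted p = 0.48). Both stayed short of the threshold in all 13 other settings.

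The 3 largest fold changes of the list rested on few reads. Lgals3bp, a secreted glycoprotein gene, had 25 and 14 reads in shScramble and 63 and 29 in shYthdf2 (log2 fold change 1.21, SE 0.55, edgeR adjusted p = 0.25). Isg20, which encodes an RNA exonuclease, had 20 and 10 reads against 36 and 33 (1.16, SE 0.54, edgeR adjusted p = 0.26). Rsad2, the gene of viperin, had 5 and 4 reads against 10 and 11 (1.15, SE 0.79, edgeR adjusted p = 0.46). In each the shYthdf2 libraries lay above the controls, but the intervals all reached below 0, and Lgals3bp was at 0.50 without shYthdf2 replicate 1.

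The other 5 tested effectors showed no separation. B2m, which encodes the light chain of class I molecules, had 252 and 240 reads in shScramble and 376 and 234 in shYthdf2, so that only 1 shYthdf2 library was above both controls. Oas1a, a synthase of 2′-5′ oligoadenylate, was at 7.58 and 7.27 CPM against 7.34 and 7.80 CPM, with a 95% interval of the log2 fold change from -0.45 to 0.50. Bst2, the gene of tetherin, was at 1.36 and 3.36 CPM against 2.34 and 2.49 CPM. Ifit2 had 93 and 94 reads against 77 and 120, far more than its neighbours Ifit1 and Ifit3 on chromosome 19. Mx1, the relative of Mx2, had 22 and 8 reads against 19 and 27. In these 5 genes the groups overlapped.

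Adar, which edits adenosine to inosine in double-stranded RNA and keeps the cell's own RNA from being sensed, was at 80.4 and 73.9 CPM in shScramble and 79.6 and 79.3 CPM in shYthdf2, with a 95% interval of the log2 fold change from -0.20 to 0.28. Samhd1, which degrades deoxynucleotides, was at 81.2 and 80.0 CPM against 69.8 and 69.0 CPM. Replicates of Samhd1 were close and the groups did not overlap, but the difference was small (log2 fold change -0.22, SE 0.11) and did not pass (edgeR adjusted p = 0.28). Trex1, which encodes a DNA exonuclease, had 0 reads in every library. Of its 1137 exon bases 99.9% are also listed as exons of the read-through gene Atrip-trex1, and reads lying over more than 1 gene were left out by the counting, so the 0 says nothing about the level of Trex1. Among the other genes of the list, 8 shared some exon bases with another gene, at most 10.6% (Isg15).

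**Figure D3:**
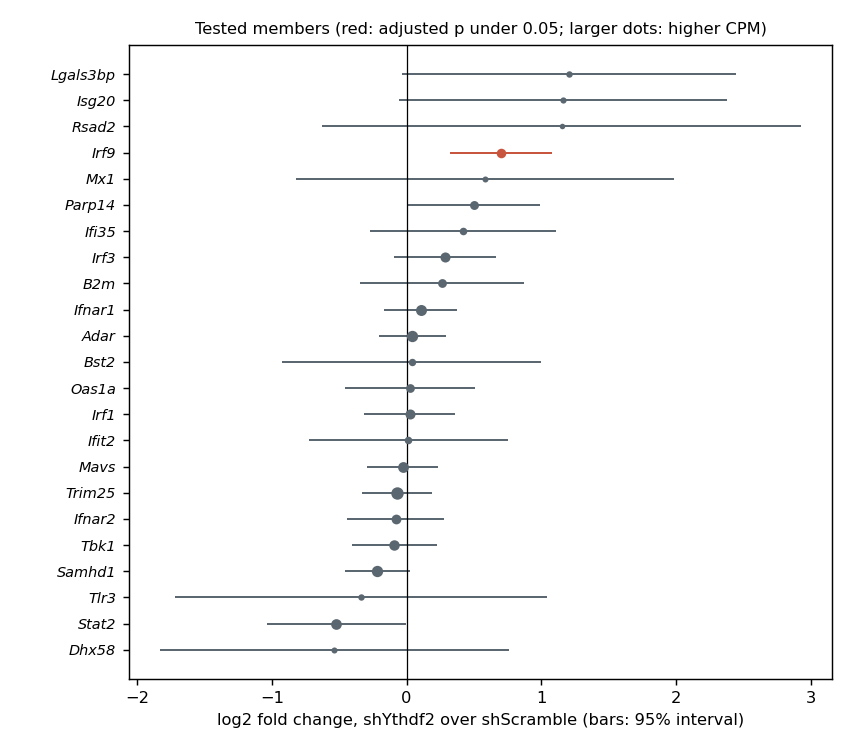
Log2 fold change of the 23 tested genes, shYthdf2 over shScramble, with 95% intervals from the edgeR fit and dots that grow with the mean CPM. Irf9 (red) is the gene with an adjusted p under 0.05, and the intervals of Stat2 and Parp14 just miss 0.

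Taken as a group of well measured genes, 11 of the 23 had a mean of at least 10 CPM. Beside Irf9 and Stat2, the other 9 had 95% intervals that lay between -0.45 and 0.66 on the log2 scale. The 12 tested genes below 10 CPM had much wider intervals, as in Lgals3bp and Dhx58. Groups that did not overlap were seen in 8 of the 23 genes (34.8%), 7 higher and 1 lower in shYthdf2, against 51.8% of all tested genes (26.2% higher and 25.5% lower).

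Outside the 34 genes, 118 further genes of the pathway were looked up from a list by role. 85 of them were tested, 3 were higher and 3 lower at an adjusted p under 0.05 (7.06% of those tested, against 3.91% of all tested genes). An unadjusted p under 0.05 was seen in 10 higher and 9 lower genes, or 22.4%, close to the 20.8% of all tested genes. The 3 that rose were 2 of the 27 other interferon-stimulated genes tested and 1 of the 8 class I presentation genes tested. Lgals9, which encodes the lectin galectin-9, had 31 and 57 reads in shScramble and 188 and 208 in shYthdf2 (log2 fold change 2.09, SE 0.37, edgeR adjusted p = 0.019). Tap1, a subunit of the transporter that loads peptides for class I molecules, had 62 and 99 reads against 333 and 226 (1.73, SE 0.35, edgeR adjusted p = 0.029). Pml, the scaffold of PML nuclear bodies, had 4527 and 4060 reads against 6318 and 7178 (0.60, SE 0.10, edgeR adjusted p = 0.018). In all 3 genes both shYthdf2 libraries lay above both controls. Tap1 lies in a region listed on 3 extra contigs, and reads aligned to several places were left out, so its counts may be a lower limit. Of the 7 other class I presentation genes tested, 0 passed the threshold.

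The 3 genes that fell encode chains of membrane receptors and an RNA editor. Il10rb, the chain shared by the receptors of interleukin 10 and of type III interferon, had 137 and 120 reads in shScramble and 30 and 40 in shYthdf2, so it fell to 26.3% of the control (log2 fold change -1.93, SE 0.34, edgeR adjusted p = 0.018). Ifngr1, the binding chain of the interferon gamma receptor, had 198 and 185 reads against 75 and 88 (log2 fold change -1.29, SE 0.27, edgeR adjusted p = 0.035). Adarb1, which encodes the editing enzyme ADAR2, had 849 and 841 reads against 472 and 500 (log2 fold change -0.86, SE 0.16, edgeR adjusted p = 0.021). Il10rb lies on chromosome 16 between Ifnar2, which ends at 91405589, and Ifnar1, which starts at 91485032 (mm10), and its own exons run from 91406157 to 91425834. The 95% interval of Il10rb, from -2.68 to -1.17, lay below those of Ifnar1 and Ifnar2. The interferon receptor partners of Ifngr1 and Il10rb did not pass, with Ifngr2 at 0.36 on the log2 scale (SE 0.36, edgeR adjusted p = 0.62) and Ifnlr1 at -0.36 (SE 0.26, edgeR adjusted p = 0.48). The other chain of the interleukin 10 receptor was not looked up. Among the remaining roles 0 genes passed, and the most abundant were Chuk of the other signalling genes at 41.2 TPM (log2 fold change -0.29, edgeR adjusted p = 0.17) and Ddx58 of the other sensors.

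**Figure D4:**
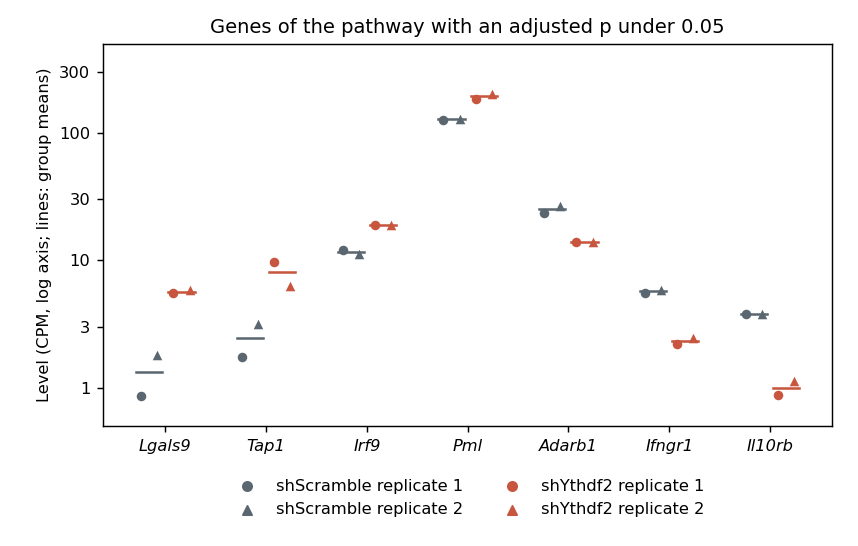
Level in each library (CPM, log axis) of Irf9 and of the 6 further pathway genes with an adjusted p under 0.05, with lines at the group means. In each of the 7 genes the shYthdf2 libraries (red) lie on 1 side of the shScramble libraries (grey).

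Some cell state markers moved with the groups. 11 markers of the 2-cell-like state, the rare state the study follows, summed to 40.0 and 64.3 CPM in shScramble and 91.8 and 260 CPM in shYthdf2, with 4 higher at an adjusted p under 0.05. Several of these are near-identical gene copies, so their single counts are uncertain. Irf9 was at 18.8 and 19.0 CPM in the same shYthdf2 libraries. The 8 markers of blood and immune cells summed to 19.9 and 22.6 CPM against 30.0 and 29.6 CPM, most of it Cd68, and 0 of them passed. The 8 fibroblast markers summed to 22.4 and 28.7 CPM against 12.9 and 22.6 CPM, again with 0 that passed. Of the 9 pluripotency markers 1, Tdgf1, was lower (edgeR adjusted p = 0.041). The part of these markers in the changes of Irf9 and of the 6 pathway genes was not tested.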

How the data were processed

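RNA-seq of 2 shScramble and 2 shYthdf2 libraries was analysed, grouped and numbered from the sample titles. The authors deposited raw counts of reads per gene, made with featureCounts version 2.0.3 over mm10 RefSeq exons per the file headers, with both reads of a pair counted, no strand option, and reads on several places or genes left out. The submitters' processing notes also name fastp 0.19.4, HISAT2 2.2.1 and DESeq2 1.40.2. The deposited gene length, used for TPM, is the length of all listed exons. The table held 0 columns from other samples. The methods call the replicates biological.

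All genes were fitted together with edgeR 4.0.16 in R 4.3.3 (quasi-likelihood F test, two-sided, TMM, filterByExpr with minimum count 10 and minimum total 15, Benjamini-Hochberg over 18341 genes); the SE is the fold change over the root of F. With 2 libraries a group no exact test of single values is useful. Alternatives were DESeq2 1.42.0, limma-voom (limma 3.58.1), other scalings and filters, halved counts, the replicate number as a block and each library left out. Fits were tried on simulated data in which all genes had the same variation between replicates. Changes were planted only in genes above a set level, so recovery at lower counts was not tested. 1 result is not reported here. The genes and lists were chosen with earlier results of these data known. Genes are named where they belong to the list, passed the threshold, or are the most abundant of a role. Ifngr2 and Ifnlr1 were added after their values were seen.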

Additional observations from a re-analysis of the deposited data

How the results depend on the processing

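The count of genes of the list that were higher, 1, was 0 under RLE scaling, with library totals alone and by the study's criteria, and ran from 0 to 1 with a library left out. The count that were lower, 0, was 1 without a filter on low counts and from 0 to 1 with a library left out, Stat2 in each case. Over all genes the 445 higher were 800 with DESeq2, 1095 without a filter and from 534 to 1175 with a library left out, and the 273 lower were 602, 843 and from 300 to 1113. Of the pathway genes the 3 higher were 6 without a filter and from 5 to 8 with a library left out, and the 3 lower were 5 and from 3 to 5. The median log2 fold change of the tested genes of the list, 0.04, ran from -0.00652 to 0.11 with a library left out. The cause of these moves was not tested. Leaving out a library leaves a group with 1 sample, which is assumed to vary like the other group.

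With the replicate block, 1851 genes were higher and 1674 lower, 1 gene of the list was lower (Stat2, log2 fold change -0.52, edgeR adjusted p = 0.00058) and 11 pathway genes were higher and 8 lower. The replicate numbers carry no stated pairing. The differences between the libraries numbered 1 and 2 correlated between the groups with r = 0.317 across genes, over only 2 pairs.

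Irf9 kept its direction in 13 other settings, with log2 fold changes from 0.66 to 0.75, and passed in 8 of them. Tap1, Il10rb, Lgals9 and Ifngr1 passed in all 13. Of 291 values of single genes of the list, 17 had the opposite sign, all of them of genes short of the threshold. Ifit2 was at -0.00444 with limma-voom and -0.00978 with the replicate block. With a library left out the values ran from -0.303 to 0.269 for Ifit2, -0.956 to 0.67 for Tlr3, -0.0821 to 0.0265 for Mavs, -0.201 to 0.0104 for Tbk1, -0.19 to 0.0391 for Trim25, -0.0354 to 0.0871 for Irf1, -0.0161 to 0.0694 for Oas1a, -0.477 to 0.825 for Bst2, -0.161 to 0.59 for B2m and -0.0175 to 0.106 for Adar. With halved counts 483 genes were higher and 301 lower, with 1 higher and 0 lower in the list, as at full depth.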
